A study of Mus musculus with 2 samples.

Results

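Crym, the iodothyronine deiodinase genes Dio1, Dio2 and Dio3, and the transporter gene Slc16a10 were examined in luminal cells of the adult mouse mammary gland that had either high or low activity of the Tbx3 promoter. These 5 genes were chosen by the measured difference of Crym between the populations, which is among the largest in the data, and by the roles of the other genes in handling thyroid hormone. The difference of Crym is therefore a description and has no test. All probe sets paired with 1 of these symbols alone were used, which gave 7 of the 29338 probe sets in the value table and 4 of its 13869 named genes. Dio3 had 0 probe sets in the table and is not analysed here.

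Thyroid hormone enters cells through membrane transporters, among them the monocarboxylate transporter MCT10, which is encoded by Slc16a10 and also carries aromatic amino acids. Inside the cell, deiodinases remove iodine from the hormone. Dio2, and in some tissues Dio1, make the active form triiodothyronine from thyroxine, whereas Dio3 inactivates both. Crym encodes mu-crystallin, a cytosolic protein that binds triiodothyronine in the presence of NADPH and also acts as a ketimine reductase.

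Luminal cells were sorted from a pool of mammary epithelial cells of 3 adult virgin females, 5 months old, on the FVB background. The mice were heterozygous Tbx3+/Venus knock-ins (Tbx3-Venus-KI), in which the coding sequence of the fluorescent protein Venus sits at the start codon of 1 Tbx3 allele and prevents expression of Tbx3 from it. Both populations carry this allele, so neither has a wild-type Tbx3 dose. Luminal cells were gated on CD24 and CD49f once stromal cells, CD45+ lymphocytes and dead cells had been removed. Of these, 200000 with high Venus fluorescence (Venus High) and 200000 with low or no Venus fluorescence (Venus Low) were collected. RNA of each population was hybridized to 1 Affymetrix GeneChip mouse genome array, so n is 1 for every value below, no test between populations was possible, and the spread between pools is unknown. Values are log2 array signals as the authors normalized them, with a floor at a signal of 10, or 3.32 on the log2 scale. A probe set was called higher when the Venus High signal reached 100 and was at least 4 times the Venus Low signal.

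In the value table, 12968 probe sets had a higher signal in Venus High cells, 16370 lay at the floor on each array, and 0 had a higher signal in Venus Low cells. A probe set that is lower in Venus High cells cannot appear in it, and medians lie above 0 by construction. A gene can still appear through a probe set at the floor while its other probe sets are missing. Being at the floor here thus does not show that a gene is unexpressed, or that it is not lower in Venus High cells. Of the 5 Tbx3 probe sets, 2 were called higher, with log2 signals of 8.72 against 3.62 and 8.04 against 3.93, and 3 were at the floor in both populations. Of 10 hormone-sensing marker genes, 7 were in the table (Esr1, Pgr, Foxa1, Prom1, Cited1, Tbx3 and Wnt4). All 7 were called higher in Venus High cells, the one direction the table holds, and Tbx3 promoter activity was itself the basis of the sort. Over all 3847 genes that reached 100, 8.58% were called. Prlr, Ly6a and Areg are not analysed here. The table had a probe set for 0 of 9 alveolar marker genes. Of 9 basal, 8 immune, 5 adipocyte and 6 thyroid follicle markers, the table had 6, 5, 4 and 4. These were at the floor in both populations on their brightest probe sets there. Since probe sets with more signal in Venus Low cells are missing, this is no measure of the purity of the sort.

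Crym was far higher in luminal Venus High cells, and no other member was called. Its 1 probe set, 1416776_at, gave a signal of 3255 with Venus High cells against 12.2 with Venus Low cells, where the floor is 10. On the log2 scale the values were 11.67 and 3.61, a difference of 8.06 or 267-fold. The fold rests on a Venus Low value that lay just above the floor, and it became smaller when a higher floor was applied. With the floor raised to 32 the difference was 6.67, and with the floor at 100 it was 5.02, both still above 4-fold. Since both arrays measured sorted bulk RNA, more cells with Crym and more Crym RNA per cell cannot be told apart. The log2 differences of probe sets that share a gene had a pooled SD of 0.31, taken from the 1062 genes that had 2 or more probe sets reaching a signal of 100. This SD pools all such genes, in a table without lower probe sets, and does not give the error of the Crym difference. Crym had no second probe set in the table against which its value could be set.

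The deiodinase genes were at or near the floor in both populations. Dio1, the selenoenzyme best known from liver, kidney and thyroid, had 1 probe set (1417991_at), and its signal was 10 in both populations. Dio2, which raises triiodothyronine locally in tissues such as brown fat, pituitary and brain, had 2 probe sets. One of them (1426081_a_at) was at the floor in both populations. The other (1418938_at) had a signal of 15.9 in Venus High cells and was at the floor of 10 in Venus Low cells, a log2 difference of at least 0.67. This Dio2 signal is far below 100, and the difference became 0 with the floor at 32. A higher signal in Venus High cells is the one direction the table holds, so it does not settle a direction for Dio2.

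All 3 probe sets of Slc16a10 (1434592_at, 1440569_at and 1453675_at) were at the floor in both populations. The transcript of this transporter was thus not measured above the floor in either population, which is not the same as being absent. Across the 7 member probe sets, 5 were at the floor in both populations, 1 lay between the floor and a signal of 100, and 1 was called higher. Among all 5889 probe sets that reached a signal of 100, 8.93% were called higher. Crym was the only member probe set to reach 100, so a share of the members has no meaning beside this background.

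**Figure D1:**
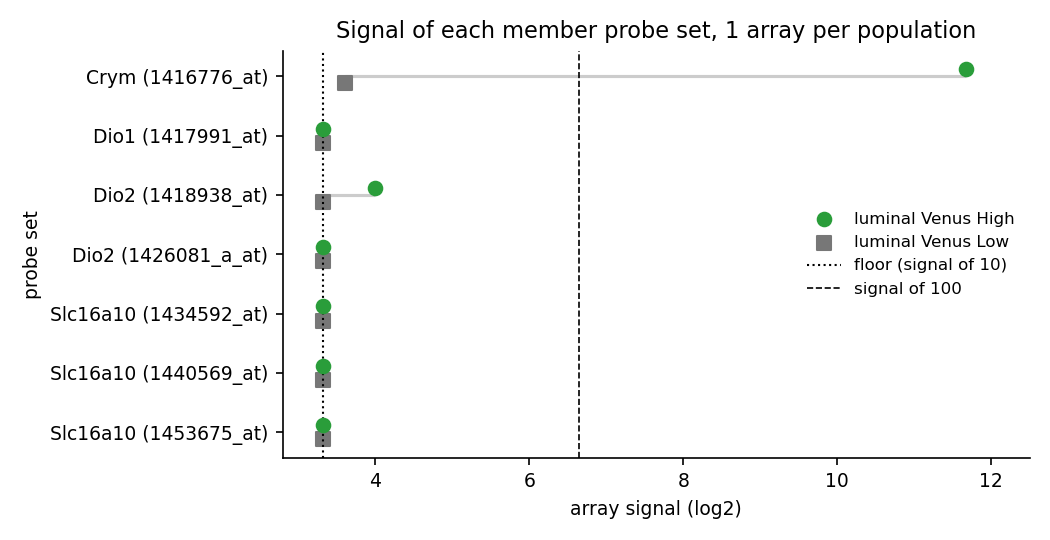
Array signal (log2, horizontal axis) of each of the 7 member probe sets with luminal Venus High cells as green circles and luminal Venus Low cells as grey squares (1 array each), the floor (dotted) and a signal of 100 (dashed). Crym spans from 3.61 to 11.67, Dio2 has 1 Venus High point just above the floor, and all other points lie on the floor.

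The difference of Crym was exceeded by those of 4 of the 13869 genes. The 5 genes whose pair of log2 signals lay nearest to that of Crym, by Euclidean distance over the 2 arrays, were Fgb (a distance of 0.32), Dmbt1 (0.33), Cited1 (0.48), Cxcl15 (0.59) and Krt6a (0.66). Signals of different probe sets do not measure RNA amounts on a common scale, and with 2 arrays the distance describes only these values. Fgb, the fibrinogen beta chain, had log2 signals of 11.81 and 3.32 in the Venus High and Venus Low populations. Cited1, a transcriptional co-regulator found in estrogen receptor-positive mammary cells, had 11.28 and 3.32. The Venus Low signals of Fgb, Dmbt1 and Cited1 lay at the floor, those of Cxcl15 and Krt6a were 11.3 and 10.5, and that of Crym was 12.2. The rank of Crym in the order of differences, 5 as deposited, depended on the processing. It stayed at 5 under median centring, and was 6 under quantile normalization, 9 when the floor was 32 and 14 when it was 100.

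**Figure D2:**
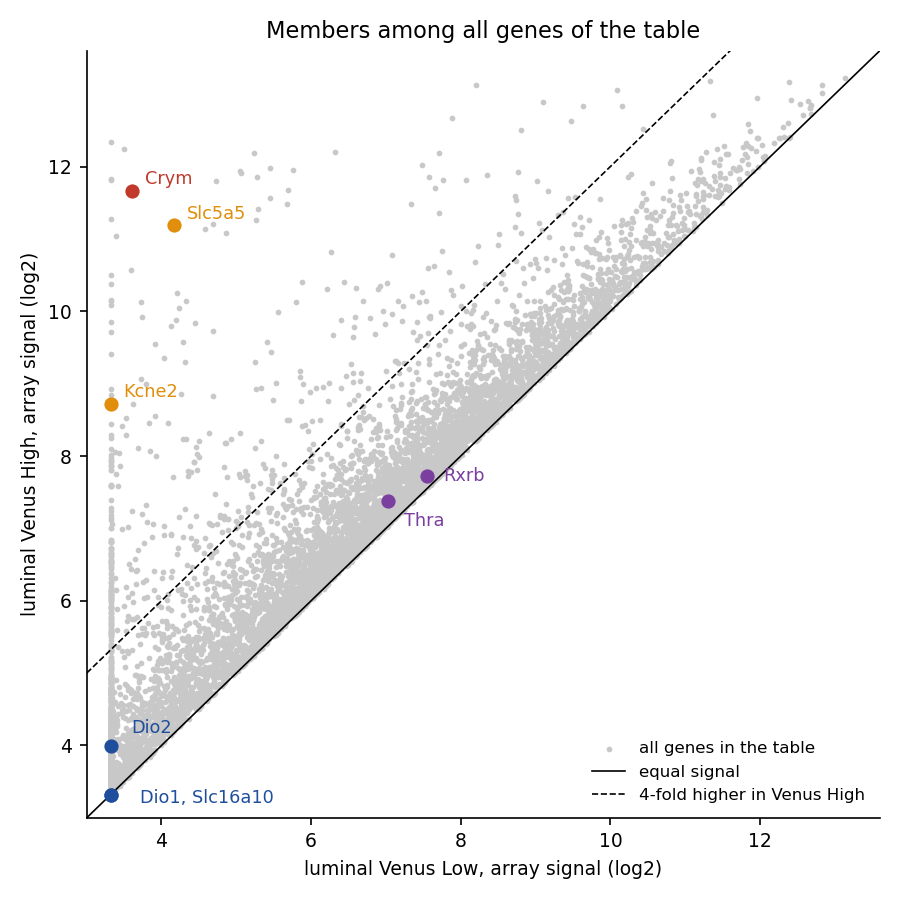
Array signal (log2) of each gene in luminal Venus Low cells (horizontal axis) and luminal Venus High cells (vertical axis), each gene shown by its brightest probe set, with lines of equal signal (solid) and of a 4-fold higher signal in Venus High cells (dashed). Crym lies at 11.67 and 3.61 and Slc5a5 at 11.19 and 4.17, Dio1 and Slc16a10 share the point at the floor, Thra and Rxrb lie near the line of equal signal, and no point lies below that line because the table holds none.

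Among other genes of thyroid biology in the table, Slc5a5 and Kcne2 were called higher. A total of 132 further genes in 11 lists were examined, each represented by its brightest probe set. Not all lists are of thyroid biology. They include the monocarboxylate transporter family, the lysine and ketimine pathway and genes named crystallin. Of the 132 genes, the table had a probe set for 79. Of those 79, 47 were at the floor in both populations, 16 reached a signal of 100 and 2 were called higher. In the whole table, 16370 of 29338 probe sets were at the floor in both populations. That share is over all probe sets and not over genes by their brightest, so it is not directly comparable with 47 of 79. A gene counted at the floor may also have other probe sets that the table lacks. Over all 3847 genes that reached 100, 8.58% were called, so 2 of 16 is near the background, and the median log2 difference was 0.46. Both called genes were on the list of iodide uptake and hormone synthesis.

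Slc5a5 encodes the sodium iodide symporter, which concentrates iodide in the thyroid and, during lactation, in the mammary gland. Its brighter probe set (1436239_at) had a signal of 2341 with Venus High against 18.0 with Venus Low cells, a log2 difference of 7.03 or 130-fold. Its other probe set (1422113_at) had signals of 211 and 33.6, a log2 difference of 2.65 or 6.28-fold. Both probe sets were called higher, but their log2 differences are far apart compared with the pooled SD of 0.31 between probe sets. Some markers with large differences also had called probe sets far apart. These were 6.88 and 4.51 for Pgr and 5.10 and 4.11 for Tbx3. Others were closer, at 5.69 and 5.37 for Wnt4 and 3.42 and 2.98 for Esr1. With the floor at 100 the Slc5a5 differences were 4.55 and 1.08, so the dimmer probe set was then below 4-fold. After median centring it was at 1.99, also just below. Slc5a5 was known to have one of the largest differences in these data when the list was written, so its place on the list is no independent evidence.

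Kcne2 encodes a potassium channel subunit that, with Kcnq1, supports iodide uptake in thyroid cells. It had a signal of 423 in Venus High cells and was at the floor in Venus Low cells, and was thus at least 42.3-fold higher. Its log2 difference was 5.40, or 2.08 with the floor at 100. Its probe set (1449421_a_at) is of a kind that can bind several transcripts of a gene, and Kcne2 has no other in the table. Kcnq1 had no probe set in the table. Of the other 14 genes on the list, 6 were in the table and all 6 were at the floor in both populations. These were Tg, which encodes the precursor protein of thyroid hormone, Tshr, the receptor for thyrotropin, Duoxa2, Iyd, which recovers iodide, Lpo, a peroxidase of milk and other secretions, and Slc26a7. Slc26a4, or pendrin, is not analysed here.

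**Figure D3:**
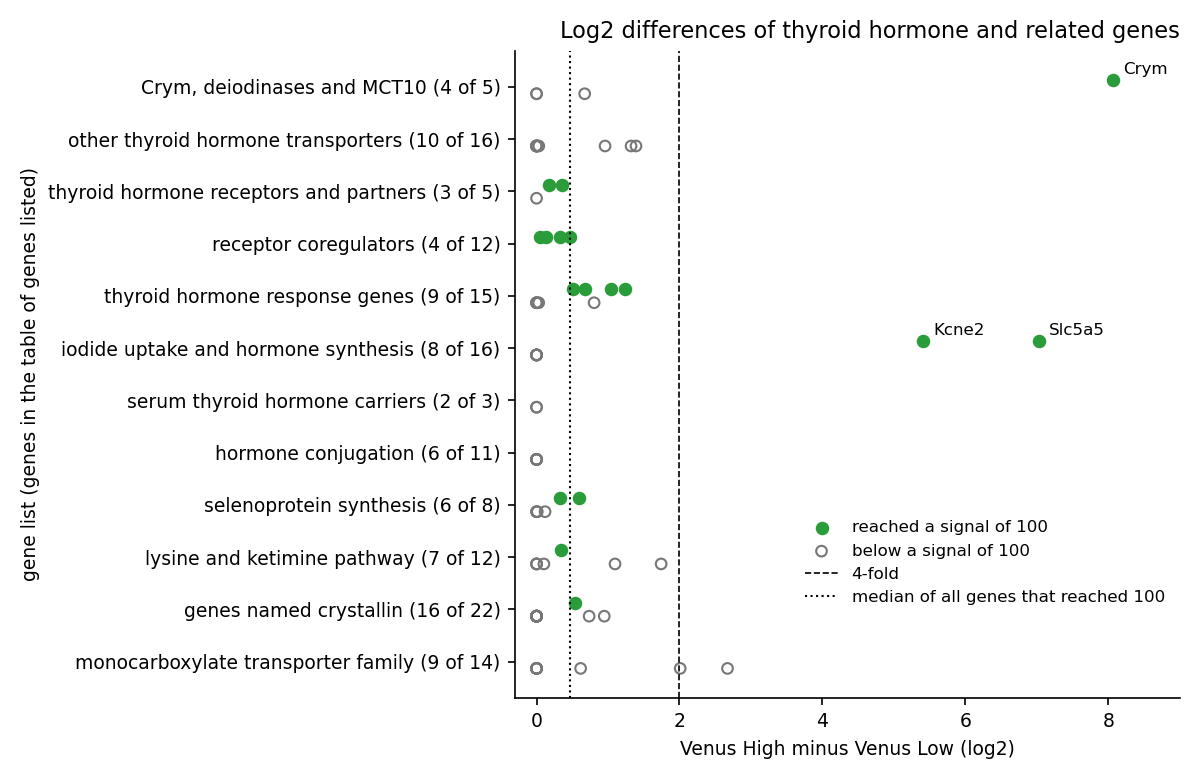
Log2 difference, Venus High minus Venus Low (horizontal axis), of each gene in the table for the members and the 11 further lists, 1 array per population, for genes that reached a signal of 100 (filled) and genes below it (open). Crym at 8.06, Slc5a5 at 7.03 and Kcne2 at 5.40 are the only filled points to the right of the 4-fold line (dashed), and the dotted line is the median of all genes that reached 100, 0.46.

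Other thyroid hormone transporters gave no signal that reached 100, so none of them could be called. Of 16 listed genes, 10 were in the table, 6 of them at the floor in both populations, among them Slco1c1, which encodes a thyroxine transporter of the blood-brain barrier. The largest differences were those of Slco3a1 and Slco1a6, both organic anion transporters, which were at the floor with Venus Low cells and had log2 signals of 4.71 and 4.64 with Venus High cells. Slco4a1, of the same family, had 4.28 against the floor. A second probe set of Slco3a1 also had 4.28 and another was at the floor in both populations. The amino acid transporter genes Slc7a5, Slc7a8 and Slc3a2 are not analysed here. Within the monocarboxylate transporter family, to which Slc16a10 belongs, 9 of 14 genes were in the table and 0 reached 100. Slc16a5 had a signal of 63.7 and Slc16a6 one of 40.3 in Venus High cells, and the Venus Low signals of both lay at the floor. Their log2 differences, at least 2.67 and at least 2.01, fell to 0 with the floor at 100. Another probe set of Slc16a5 (1447225_at) was at the floor in both populations. Slc16a4 differed by 0.62, with a signal of 21.0 in Venus High cells.

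The thyroid hormone receptor alpha gene was above the floor in both populations. On its brighter probe set Thra had a signal of 166 with Venus High against 130 with Venus Low cells, a log2 difference of 0.35, and on the other 86.8 against 84.3, a difference of 0.04. Rxrb, which encodes a retinoid X receptor that pairs with it, had 211 and 187, a difference of 0.17. All of these lie below the median of 0.46 over all genes that reached 100. Median centring takes 0.66 from every Venus High log2 signal and so turns any smaller difference of a gene well above the floor negative by construction, which gave -0.31 for the brighter Thra probe set and -0.49 for Rxrb. Since that shift comes from a table with no lower probe sets and the common scale of the arrays is unknown, neither sign is a measured direction. Rxra was at the floor on the 1 probe set in the table, and Thrb and Rxrg are not analysed here.

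Of 12 receptor coregulators, 4 were in the table and all 4 reached 100, with 0 called. Ep300, a histone acetyltransferase, differed by 0.47 on the log2 scale, Ncoa2, a steroid receptor coactivator, by 0.33, Tbl1xr1, a subunit of the corepressor complex, by 0.13 and Med1, a Mediator subunit that binds nuclear receptors, by 0.04. On these brightest probe sets the median was 0.23, and each difference is smaller than the 0.66 that median centring takes away. This does not hold for every other probe set of these genes. The largest differences were 1.53 for Ncoa2 (1446827_at) and 1.37 for Tbl1xr1 (1455109_at), both below a signal of 100. Med1 and Tbl1xr1 also had probe sets at the floor in both populations. The corepressor gene Ncor1 is not analysed here.

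None of the genes listed as responsive to thyroid hormone in other tissues was called. Of 15 listed, 9 were in the table, 4 reached 100, and the median log2 difference of the 4 was 0.86. At a 2-fold threshold 2 of the 4 passed, beside 21.6% of all genes that reached 100. These were Bcl3, a nuclear I-kappa-B family protein, with log2 signals of 9.41 and 8.18 (2.35-fold), and Stat5a, a transcription factor of prolactin signaling, with 9.34 and 8.30 (2.06-fold). After median centring their differences were 0.57 and 0.38, both below 2-fold. Cpt1a, an enzyme of fatty acid oxidation, differed by 0.67 and Atp2a2, a calcium pump, by 0.51 on their brightest probe sets. Klf9 and Hr, which are direct targets of the receptor in brain and skin, did not reach 100, with log2 signals of 4.91 and 4.88 for Klf9 and 4.76 and 3.95 for Hr. Thrsp, a lipogenic gene induced by the hormone in liver, was at the floor in both populations.

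No gene of hormone conjugation or serum carriers that was in the table was measured above the floor. Of 11 conjugation genes, 6 sulfotransferase and glucuronosyltransferase genes were in the table (Sult1b1, Sult1c1, Sult1c2, Sult1d1, Sult1e1 and Ugt2b34). All 6 were at the floor in both populations. Of 3 carrier genes, Ttr, on its 4 probe sets, and Serpina7 were in the table and also at the floor. The other genes of both lists are not analysed here. Of the genes for selenoprotein synthesis, on which deiodinases depend, Secisbp2 differed by 0.33 and Sephs1 by 0.59, and 0 were called. On these brightest probe sets both are also smaller than the shift of 0.66 under median centring. The other Sephs1 probe sets, all below 100, differed by 0.68, 0.43 and 0.10. Eefsec, the elongation factor for selenocysteine, stayed below 100 and differed by 0.12.

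The other known activity of mu-crystallin lies in the breakdown of lysine and of sulfur amino acids through cyclic ketimines. Of 12 genes of this pathway, 7 were in the table and 0 were called. Aldh7a1, Aadat and Pipox, enzymes of lysine breakdown, were at the floor in both populations. Kyat1, a transaminase that can form ketimines, was the only one to reach 100, with log2 signals of 6.86 and 6.52. Cbs, which makes cystathionine, stayed below 100 with signals of 46.2 and 13.8, a log2 difference of 1.74 that fell to 0.53 with the floor at 32. Kyat3, another transaminase, had signals of 61.6 and 28.8. Mu-crystallin takes its name from the lens, where it was found in marsupials, and its protein is not related to the alpha, beta and gamma crystallins. Of 22 other genes named crystallin, 16 were in the table, 13 of them at the floor in both populations. Cryz, a quinone oxidoreductase, was the only one to reach 100, and its probe sets differed between the populations by 0.53 and 0.52 on the log2 scale. Crybb3 and Cryzl1 stayed below 100, with differences of 0.95 and 0.74.

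**Figure D4:**
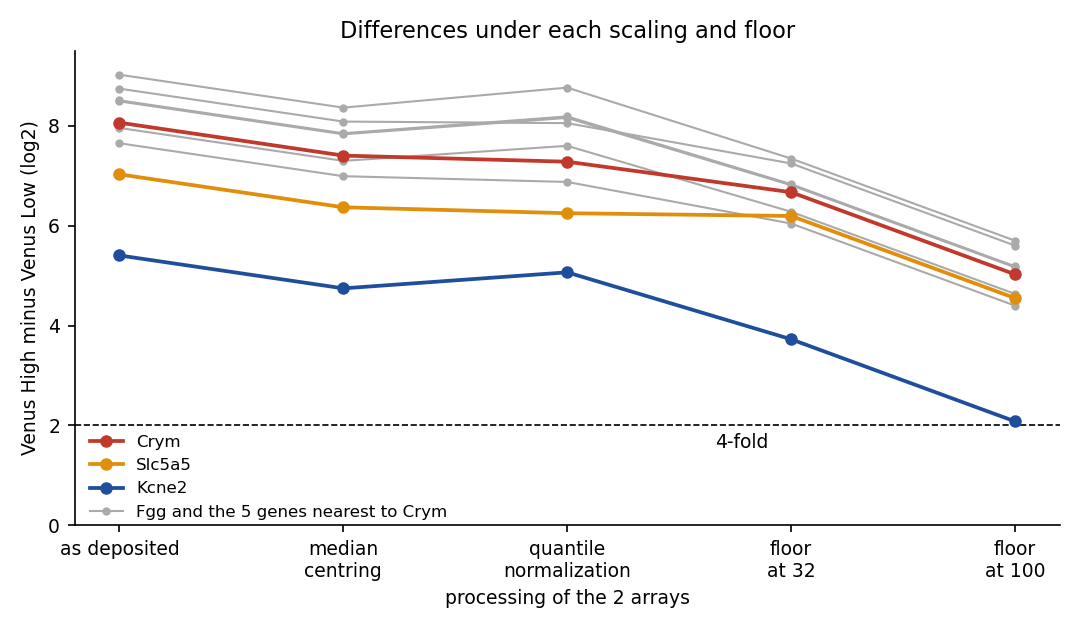
Log2 difference, Venus High minus Venus Low (vertical axis), of Crym, Slc5a5, Kcne2, Fgg and the 5 genes nearest to Crym (Fgb, Dmbt1, Cited1, Cxcl15 and Krt6a) as deposited and after each other scaling or floor (horizontal axis), 1 array per population. Crym moves from 8.06 as deposited to 5.02 with the floor at 100, and every line stays above the 4-fold level (dashed), Kcne2 only just at 2.08.

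Among the genes beside Crym on its chromosome that had a probe set in the table, only 1 was above the floor. This comparison was chosen after the values were seen, and probe sets lower in Venus High cells could not appear in it. Of the 4 protein-coding genes on each side in the RefSeq order of GRCm38.p6, 5 had a probe set in the table. Both nearest neighbours, Anks4b and Abca14, were at the floor in both populations, and so were Zp2, a gene of the egg coat, and Abca16. Tmem159, which encodes a lipid droplet protein and lies 3 genes away, had a log2 signal of 9.30 with Venus High against 5.26 with Venus Low cells, a difference of 4.04 or 16.5-fold. With the floor at 100 its difference was 2.65, and its other probe set was at the floor in both populations. Over all 3847 genes that reached 100, 8.58% were called higher. Dnah3, Abca15 and Gm32916 are not analysed here.

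**Figure D5:**
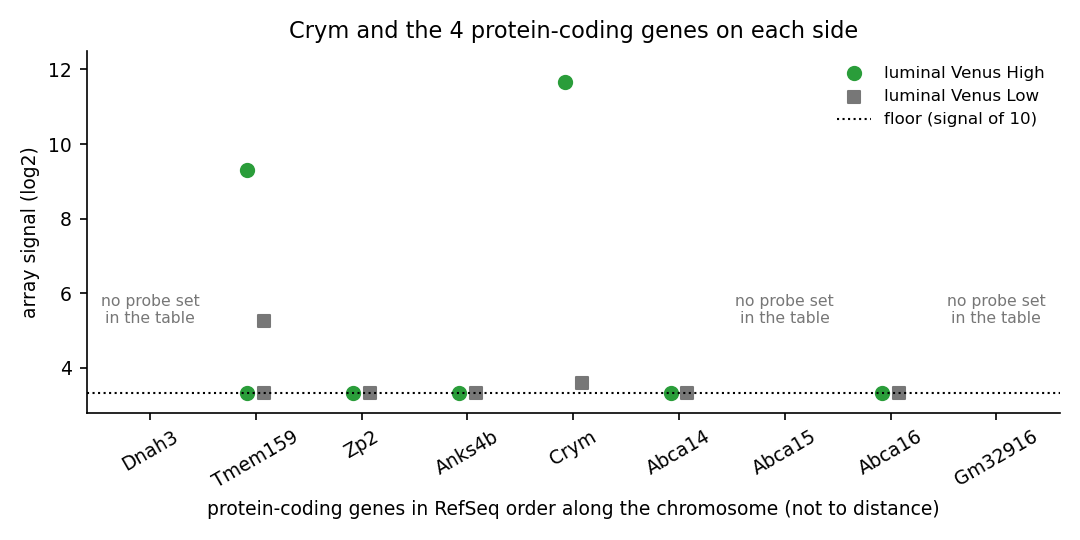
Array signal (log2, vertical axis) of every probe set of Crym and of the 4 protein-coding genes on each side of it in RefSeq order (horizontal axis, not to distance), with Venus High cells as green circles and Venus Low cells as grey squares (1 array each). Crym and 1 of 2 probe sets of Tmem159 are above the floor (dotted), and the genes between them, Zp2 and Anks4b, are on it.

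Fgg and Fgb, which liver also expresses, were higher together with Crym, and their part in the result was not tested. Of 8 liver markers, 6 were in the table. Fgg had a signal of 5194 and Fgb one of 3587 in Venus High cells, and both were at the floor of 10 in Venus Low cells. Ttr, Apoa1 and Fga were at the floor in both populations, Apoa2 had a signal of 13.3 in Venus High cells, and Alb and Serpina1a are not analysed here. Of 8 stromal and endothelial markers, 6 were in the table and 0 reached 100. Dcn had signals of 64.6 with Venus High and 29.7 with Venus Low cells on its brighter probe set, Col1a2 had 14.3 and 12.8, and Col1a1 had 11.1 against the floor. Col3a1, Pdgfrb and Cdh5 were at the floor in both populations.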

How the data were processed

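Signals of 2 arrays were analysed, 1 of luminal Venus High and 1 of luminal Venus Low cells. The authors prepared biotinylated cRNA from 250 ng of total RNA with an RNA integrity number above 9.4. They deposited log2 signals, which they had log2-transformed, then normalized and centred for each sample with BRB Array software. MAS5 is named in the submitters' processing notes. No factor for the normalization is given in the sources used here, so a common scale between the arrays is unknown. Detection calls were not used here. Precision is limited by the number of arrays.

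The platform annotation gives 1 gene symbol for 22223 probe sets, several for 602 and none for 6513. Symbols were updated by gene identifier through the RefSeq gene table of GRCm38.p6. In gene lists, each gene took the values of its brightest probe set by mean log2 signal. A call needed a log2 difference of at least 2 and a signal of at least 100. Lists of genes were described by counts and by the median of the genes that reached 100. Members, lists, the rule for named genes and the alternatives were chosen with earlier results of these data known. The rule named every member probe set, the genes of each list that reached 100 and at least the 3 with the largest differences, and the 5 genes nearest to Crym. Genes at the floor are named to fill out counts. The alternatives were median centring (a shift of 0.66 on the log2 scale) and quantile normalization, each followed by the floor, floors of 32 and 100, signal minimums of 50, 200 and none, thresholds of 2-fold and 8-fold, the median over probe sets for each gene, and leaving out probe sets with the suffix _a_at, _s_at or _x_at, which can bind several transcripts. Python 3.11.15, numpy 2.4.6, pandas 2.3.3 and matplotlib 3.10.9 were used, and the counting was tested on simulated data.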

Additional observations from a re-analysis of the deposited data

How the results depend on the processing

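The log2 difference of Crym was 7.40 under median centring, 7.28 under quantile normalization, 6.67 when the floor was 32 and 5.02 when it was 100, each a larger move than the SD of 0.31 between probe sets, and each still above 4-fold. That of Dio2 was 0.014 under median centring, 0.34 under quantile normalization and 0 when the floor was 32 or 100. Crym was the 1 member probe set called under every signal minimum, fold threshold, scaling and floor tried. The count of called genes for iodide uptake and hormone synthesis fell from 2 to 1 once probe sets with the suffix _a_at, _s_at or _x_at were left out, since Kcne2 then has none. Thyroid hormone response genes rose from 0 called to 2 at a 2-fold threshold. The monocarboxylate transporter family rose from 0 to 1 with a signal minimum of 50 (Slc16a5) and to 2 with none (Slc16a5 and Slc16a6). Of 140 alternative values, the other 128 moved by less than the SD or kept their count within 1.5 times. Some of these could not move. The lists of hormone conjugation and serum carriers had every gene in the table at the floor. The Crym and Dio2 differences came from probe sets without such a suffix, so leaving out suffixed probe sets could not change them. The total is therefore no measure of robustness. No paired analysis was possible because each population has 1 array, and no array could be left out. Signals near the floor limit what can be said of Dio1, Dio2 and Slc16a10.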
